A study of Mus musculus with 10 samples.

Results

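Ccn1, Ccn2 and Ankrd1, genes that serve as readouts of the transcriptional co-activators YAP and TAZ, and 7 genes of the contractile actin cytoskeleton (Tagln, Tpm1, Tpm2, Myl9, Cald1, Cnn2 and Acta2) were followed in the RNA of CD8+ T cells co-cultured with tumor cells. They are 10 of the 57825 genes listed. Each was found by its gene symbol, taking the entry with the highest mean FPKM where a symbol is repeated. The study asked how acetate, a short-chain fatty acid made by gut bacteria, acts on CD8+ T cells during co-culture with breast cancer cells. Splenic CD8+ T cells of female Balb/c mice (the methods give an age of 7 to 8 weeks) were activated on plate-bound anti-CD3 with IL-2 and anti-CD28 for 12 h and then cultured for 24 h. They were next co-cultured for 48 h with 4T1 cells, a mammary carcinoma line of Balb/c origin, and the labels place all samples at day 3. Both groups of 5 samples share these steps, acetate apart, and carry no engineered allele. The CD8+4T1+NaAc group received 5 mM sodium acetate (NaAc), the CD8+4T1 group did not. By the methods the acetate was given in the 24 h culture before 4T1 cells were added, so the groups already differed before co-culture. The RNA is described as that of purified CD8+ T cells, but no source used here says whether or how they were separated from 4T1 cells after co-culture, or whether the samples of a group came from different mice. The p-values therefore measure the spread between these samples, which may be technical.

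As background, the Hippo pathway is a kinase cascade in which MST1/2 (Stk4, Stk3), with SAV1 and the MOB1 proteins, activate LATS1/2, which phosphorylate YAP (Yap1) and TAZ (Wwtr1) and keep them out of the nucleus. In spread, adherent cells under tension YAP and TAZ enter the nucleus, bind TEAD transcription factors and induce genes such as Ccn1, Ccn2 and Ankrd1. The contractile genes are classic targets of serum response factor (SRF) and its actin-sensing partners MRTF-A and MRTF-B. They are abundant in smooth muscle, in myofibroblasts and in many spread epithelial and mesenchymal cells, whereas lymphocytes run their cortical actin mainly on non-muscle actins, non-muscle myosin and a subset of tropomyosins.

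Promoter sequences of RefSeq on the mouse build GRCm38.p6 were searched in the 250 bases before each start, since both factor families have short recognition elements and these 10 genes are grouped by them. The letters searched were GGAATG, the core of the element bound by TEAD factors, and the CArG box, the SRF element, each on both strands. The CArG box was taken in its exact form of 10 letters, CC, then A or T only, then GG. Elements with a mismatch were not counted, so a gene without a match may still hold one. Both motifs can share the GG or CC at their ends, but none of the matches printed here overlaps a match of the other motif. Of the 10 genes, 8 had an entry in the table. GGAATG stood in 5 of them (5 of their 9 promoters), against 12.6% of all 32851 promoters. A CArG box stood in 2 (2 of the 9 promoters), against 1.47%. The matches with the bases around them are shown 5′ to 3′ on the strand of the gene, with the match in capitals.
Ccn1, chr3:145650043-145650128, minus strand, match 103 bases before the start: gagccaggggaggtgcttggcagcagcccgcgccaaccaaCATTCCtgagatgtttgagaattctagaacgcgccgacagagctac
Ankrd1, chr19:36119922-36120094, minus strand, matches 210 and 123 bases before the start: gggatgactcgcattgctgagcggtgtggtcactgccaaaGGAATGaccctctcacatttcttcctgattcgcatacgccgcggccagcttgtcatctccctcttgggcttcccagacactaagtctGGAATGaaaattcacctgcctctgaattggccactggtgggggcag
Tpm1, chr9:67049224-67049309, minus strand, match 56 bases before the start: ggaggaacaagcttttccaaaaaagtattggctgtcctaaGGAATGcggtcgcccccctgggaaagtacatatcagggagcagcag
Cald1, chr6:34598311-34598396, plus strand, match 153 bases before the start: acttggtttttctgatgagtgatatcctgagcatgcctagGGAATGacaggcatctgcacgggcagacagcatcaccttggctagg
Acta2, chr19:34255474-34255559, minus strand, match 146 bases before the start: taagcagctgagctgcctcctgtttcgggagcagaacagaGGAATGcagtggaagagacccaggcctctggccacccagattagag
Cnn2, chr10:79988504-79988593, plus strand, match 56 bases before the start: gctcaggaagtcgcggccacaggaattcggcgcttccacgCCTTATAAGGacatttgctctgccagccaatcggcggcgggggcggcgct
Myl9, chr2:156775263-156775352, plus strand, match 161 bases before the start: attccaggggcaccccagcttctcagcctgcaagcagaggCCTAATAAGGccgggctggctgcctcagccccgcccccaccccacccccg

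Cald1 has 2 promoters in the table and 1 of them holds the match. Tpm2 holds neither motif within this window. A match describes the letters and is not a measurement of binding. The Ccn1 match is read on the opposite strand of the gene, the other matches on its own strand.

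The deposited unit, FPKM, counts fragments per length of the gene and relative to the size of the library, so levels of different genes can be set side by side. Multiplying by the length gave whole fragments, scaled to between 16306447 and 18853726 fragments per sample. Genes that averaged 0.5 FPKM or more were compared by limma on log2(FPKM + 0.1), a scale on which fold changes of low genes are understated, and a gene was called when its Benjamini-Hochberg adjusted p was under 0.05. Of 15710 genes tested 5742 were called, which is 36.5%, and 2764 were higher in CD8+4T1+NaAc, 17.6% of the genes tested. T cell markers (10 genes, among them Cd3e, Cd8a and Lck) summed to 746 to 831 FPKM in CD8+4T1 and to 658 to 820 FPKM in CD8+4T1+NaAc, so both groups carried the labelled cell type. Of these genes 1 was called higher and 5 lower, a split that became 5 higher and 4 lower when samples were rescaled to the same total and 3 and 4 with voom. Markers of epithelial and 4T1 cells (12 genes, among them Krt8, Krt18 and Lcn2) summed to 8.54 to 18.4 FPKM (median 10.98) in CD8+4T1 and to 64.6 to 173 FPKM (median 101) in CD8+4T1+NaAc, an 8.31-fold ratio of the means with no overlap. Krt8, Krt18 and Lcn2 made up most of that sum. Of the 12 genes 7 were tested by limma and 5 were called higher, of which Krt7 and Cldn3 passed the filter only through the NaAc group, where they are high, while Epcam (0.41) and Cldn7 (0.00) were not called (limma adjusted p = 0.305 and 0.994). Krt19, Cldn4, Grhl2 and Esrp1 of that list were under 0.5 FPKM in all samples. Cdh1, also below the level tested, went from a mean of 0.0316 to 0.606 FPKM without overlap (limma adjusted p without a filter = 0.000269). Replicate 1 of either group listed fewer genes above 0 FPKM (22291 and 20233) than the others of its group (23786 to 24054 and 24681 to 25088). Without replicate 1 of both groups, 6 of the 10 genes were called, as with all samples.

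Of the YAP and TAZ readouts, Ccn1 and Ankrd1 rose with NaAc by several fold, and Ccn2 was not tested at its low level but did not overlap between the groups. Of the contractile genes, Cald1 and Tpm2 rose most, Tpm1 rose 1.58-fold and Cnn2 1.12-fold (ratios of mean FPKM), while Tagln was not called. Acta2 and Myl9 lay below the level tested. In all, 7 of the 10 genes passed the filter and 6 were called, all 6 higher, beside 17.6% called higher among all genes tested. Of the 7 that passed, 4 (Ankrd1, Tagln, Tpm2 and Cald1) passed through the mean of a single group, so that Ankrd1, Tpm2 and Cald1 had to be high in CD8+4T1+NaAc to be tested, and these counts do not support a direction. Without the filter all 10 genes were tested and 7 were called higher, beside 8.94% of the 32272 genes tested that way. The groups did not overlap, with every CD8+4T1+NaAc sample higher, for 7 of the 10 genes. Of the 7 genes past the filter 5 did so, beside 13.1% of all genes tested. These 5 include Ankrd1, Tpm2 and Cald1, so this count does not support a direction either. The 7 of 10 include Ccn2 and Acta2, which were not tested, and the 13.1% covers tested genes only. As the samples are bulk RNA, more cells of a type and more RNA of the gene per cell cannot be told apart in any of these values.

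**Figure D1:**
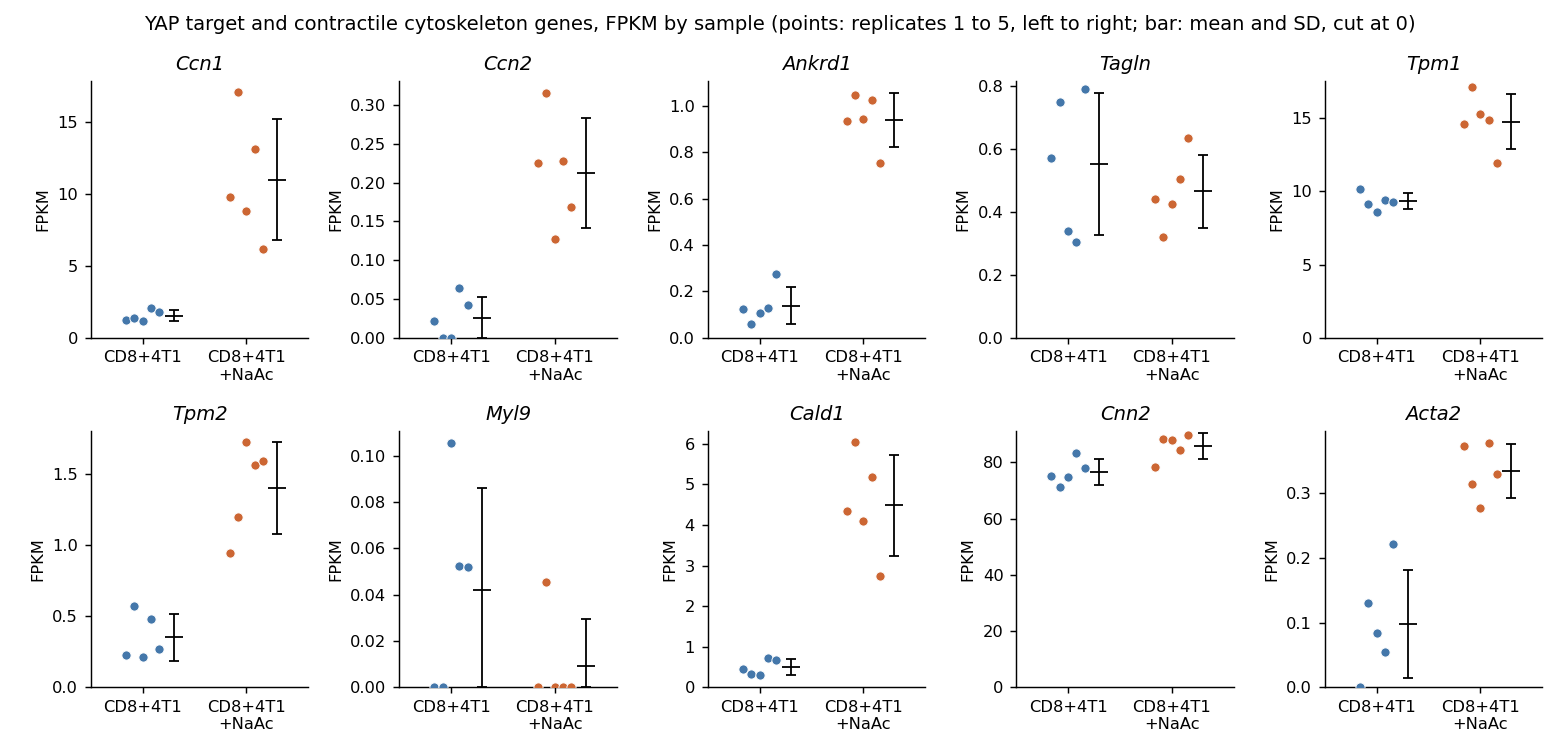
FPKM of each of the 10 genes (y axis, linear from 0, each panel with its own range) in the 5 CD8+4T1 samples (blue) and the 5 CD8+4T1+NaAc samples (orange), points in the order of replicates 1 to 5 and black bars at the mean with the SD. In 7 panels (Ccn1, Ccn2, Ankrd1, Tpm1, Tpm2, Cald1 and Acta2) every orange point lies above every blue one, while Tagln, Myl9 and Cnn2 overlap.

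Ccn1 (ENSMUSG00000028195, listed on chromosome 3 from 145352731 to 145355736) encodes CYR61, a secreted matricellular protein that binds integrins and is among the most used YAP readouts. The CD8+4T1 samples had 1.24, 1.36, 1.18, 2.04 and 1.77 FPKM in replicates 1 to 5. The CD8+4T1+NaAc samples had 9.73, 17.0, 8.82, 13.1 and 6.14 FPKM. All NaAc samples lay above all samples without NaAc, and replicates 2 and 5 were the highest and lowest of their group. The means were 1.52 ± 0.371 and 10.96 ± 4.20 FPKM (SD, n = 5). On the log2 scale Ccn1 rose by 2.72, with a standard error of 0.25 (limma adjusted p = 3.81e-05). Between 39 and 68 fragments stood behind the values without NaAc and between 206 and 648 behind those with it. No other listed gene overlaps Ccn1, whose promoter holds a GGAATG match on the opposite strand.

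Ankrd1 (ENSMUSG00000024803, chromosome 19 from 36089361 to 36097499) encodes CARP, an ankyrin repeat protein of the nucleus and the sarcomere known from stretched muscle. Its levels were 0.124, 0.0596, 0.106, 0.126 and 0.273 FPKM in CD8+4T1. With NaAc they were 0.932, 1.05, 0.945, 1.02 and 0.751 FPKM. The NaAc samples were close to each other (coefficient of variation 12.4%) and all above the others, whose highest was replicate 5. The log2 fold change was 2.18 with a standard error of 0.32 (limma adjusted p = 0.000454). Behind the CD8+4T1 values were 3 to 13 fragments per sample, small counts whose spread is wide. Among the 8 genes with a promoter entry, Ankrd1 alone had a pair of GGAATG matches in the window.

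Ccn2 (ENSMUSG00000019997, chromosome 10 from 24471340 to 24474581) encodes CTGF, the connective tissue growth factor, a matricellular protein that promotes matrix deposition. It was listed at 0.0209, 0, 0, 0.0636 and 0.0424 FPKM in CD8+4T1 and at 0.225, 0.315, 0.127, 0.227 and 0.168 FPKM in CD8+4T1+NaAc. These are 6 fragments over the 5 samples without NaAc and 53 over the 5 with it, a ratio per depth of 8.57 (95% exact interval 3.69 to 24.4, counting error only). All 5 NaAc samples were above all others, which gives the smallest p that an exact permutation test of 5 against 5 allows (two-sided, p = 0.00794). In the fit without a filter on low values the limma adjusted p was 0.00520. Ccn2 thus differed in the same direction as Ccn1, at a far lower FPKM.

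Tropomyosins are coiled-coil proteins that lie along actin filaments and set which myosins and severing proteins reach them. Tpm1 (ENSMUSG00000032366, chromosome 9 from 66929872 to 66956688) had 10.2, 9.17, 8.61, 9.42 and 9.29 FPKM in CD8+4T1. In CD8+4T1+NaAc it had 14.6, 17.1, 15.3, 14.9 and 11.9 FPKM, again without overlap and with replicate 2 highest and replicate 5 lowest. Its log2 fold change was 0.65 with a standard error of 0.09 (limma adjusted p = 0.000269). Tpm1 was the member with the least spread relative to its mean in CD8+4T1 after Cnn2 (coefficients of variation 6.07% and 5.89%).

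Tpm2 (ENSMUSG00000028464, chromosome 4 from 43514711 to 43523765), the beta-tropomyosin of muscle and fibroblasts, had 0.226, 0.572, 0.211, 0.480 and 0.271 FPKM without NaAc. With NaAc it had 0.945, 1.20, 1.73, 1.56 and 1.59 FPKM. Here replicate 1 was the lowest and replicate 3 the highest NaAc sample, another order than that of Ccn1 or Tpm1. The log2 fold change was 1.78 with a standard error of 0.28 (limma adjusted p = 0.000676). Tpm2 rested on 10 to 29 fragments per sample without NaAc and on 47 to 83 with it.

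Cald1 (ENSMUSG00000029761, chromosome 6 from 34575435 to 34752408) encodes caldesmon, which binds actin and tropomyosin and restrains the myosin ATPase. It had the highest ratio of means among the 7 genes tested, 9.08. The CD8+4T1 samples had 0.442, 0.324, 0.295, 0.721 and 0.684 FPKM. The NaAc samples had 4.35, 6.03, 4.09, 5.18 and 2.74 FPKM, in the same order of replicates as for Ccn1. On the log2 scale the fold change was 2.97 with a standard error of 0.26 (limma adjusted p = 3.04e-05), from 58 to 143 fragments per sample without NaAc and 548 to 1369 with it.

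Cnn2 (ENSMUSG00000004665, chromosome 10 from 79824418 to 79831896) encodes calponin 2, an actin-binding regulator found in many non-muscle cells, leukocytes included. It was the most abundant of the 10 genes by FPKM, at 75.3, 71.3, 75.0, 83.5 and 77.9 FPKM without NaAc and 78.5, 88.2, 87.9, 84.6 and 89.8 FPKM with it. The groups overlapped, since replicate 4 without NaAc lay above replicate 1 with it. The log2 fold change was 0.16 with a standard error of 0.06 (limma adjusted p = 0.0387). The call was lost in 8 of the 10 fits that left out a single sample (limma adjusted p from 0.00813 to 0.0919 over the 10 fits), all but those without replicate 4 of CD8+4T1 or without replicate 1 of CD8+4T1+NaAc. Rescaling made the difference larger, to 0.34 at the same total, 0.30 with T cell markers and 0.26 with voom (limma adjusted p = 0.000419, 0.00194 and 0.00170).

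Acta2 (ENSMUSG00000035783, chromosome 19 from 34218490 to 34232990), the smooth muscle alpha-actin that defines myofibroblasts, was listed at 0, 0.131, 0.0838, 0.0553 and 0.221 FPKM without NaAc and at 0.373, 0.314, 0.276, 0.377 and 0.329 FPKM with it. The 18 fragments without NaAc and 63 with it give a ratio per depth of 3.40 (95% exact interval 1.99 to 6.10, counting error only), and the groups did not overlap (exact permutation test, two-sided, p = 0.00794). Without a filter its limma adjusted p was 0.0204. Actins are near-identical in coding sequence and Actb and Actg1 were abundant in all samples, so the low value of Acta2 is uncertain; whether fragments of the other actins were assigned to it was not tested.

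Tagln (ENSMUSG00000032085, chromosome 9 from 45840917 to 45847356) encodes transgelin or SM22-alpha, an SRF target of smooth muscle. Its levels were 0.572, 0.750, 0.339, 0.305 and 0.793 FPKM without NaAc and 0.441, 0.320, 0.427, 0.506 and 0.636 FPKM with it, each NaAc sample within the range of the other group. The log2 fold change was -0.15 with a standard error of 0.32 (limma adjusted p = 0.739). Tagln shares 108 bases with Pcsk7 and 3627 bases with the noncoding Gm48529 on the opposite strand, and reads of such a pair cannot be told apart unless the counting used strand. Myl9 (ENSMUSG00000067818, chromosome 2 from 156617340 to 156623578), the smooth muscle regulatory light chain of myosin, had 4 fragments over the 5 CD8+4T1 samples and 1 over the 5 CD8+4T1+NaAc samples. Its ratio of 0.243 has a 95% exact interval from 0.00493 to 2.45, so no difference was detectable at this depth (exact permutation test, two-sided, p = 0.167), and its near-identical copies Myl12a and Myl12b could share its reads. Ccn2, Ankrd1, Tpm1 and Cald1 also overlap noncoding genes on the opposite strand, which were listed at 0 in most samples except ENSMUSG00000121089 beside Tpm1 (0 to 1.91 FPKM).

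Across the NaAc samples, 6 of the 10 genes were highest in replicate 2 and 5 were lowest in replicate 5 (Ccn1, Ankrd1, Tpm1, Cald1 and Myl9, the last tied at 0 with 3 other samples). The epithelial and 4T1 marker sum had its highest and lowest NaAc values in the same replicates, at 173 and 64.6 FPKM. In CD8+4T1, replicates 4 and 5 had the highest marker sums (17.7 and 18.4 FPKM), and they were also the highest for Ccn1, Ccn2, Ankrd1, Cald1 and Cnn2. Ccn1 per 1000 FPKM of the marker sum was 96.3 to 146 FPKM without NaAc and 87.1 to 133 FPKM with it, a ratio formed after the data were seen. The same ratio overlapped between groups for Cald1 (29.5 to 51.8 and 34.9 to 59.3) and Ankrd1 (5.43 to 14.8 and 6.06 to 12.7). It also overlapped for Tpm2 (14.7 to 52.0 and 6.96 to 24.7), Ccn2 (0 to 3.59 and 1.25 to 3.07), Acta2 (0 to 12.01 and 1.82 to 5.10) and Myl9 (0 to 11.5 and 0 to 0.264). The values of 0 are samples without a fragment of the gene. The medians without and with NaAc were 124 and 98.5 for Ccn1, 37.2 and 40.9 for Cald1, and 11.6 and 9.33 for Ankrd1. Ccn2 had medians of 2.30 and 1.82. The medians fell by a larger factor for Tpm2 (26.5 and 12.9), Acta2 (9.14 and 2.98) and Myl9 (2.84 and 0). Tpm1 per 1000 FPKM of markers, in contrast, was 505 to 1193 without NaAc and 99.0 to 199 with it, Cnn2 was 4234 to 8818 and 510 to 1391, and Tagln was 17.2 to 68.3 and 1.85 to 9.85, all without overlap. The part of 4T1 RNA in the rise of these genes was not tested.

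**Figure D2:**
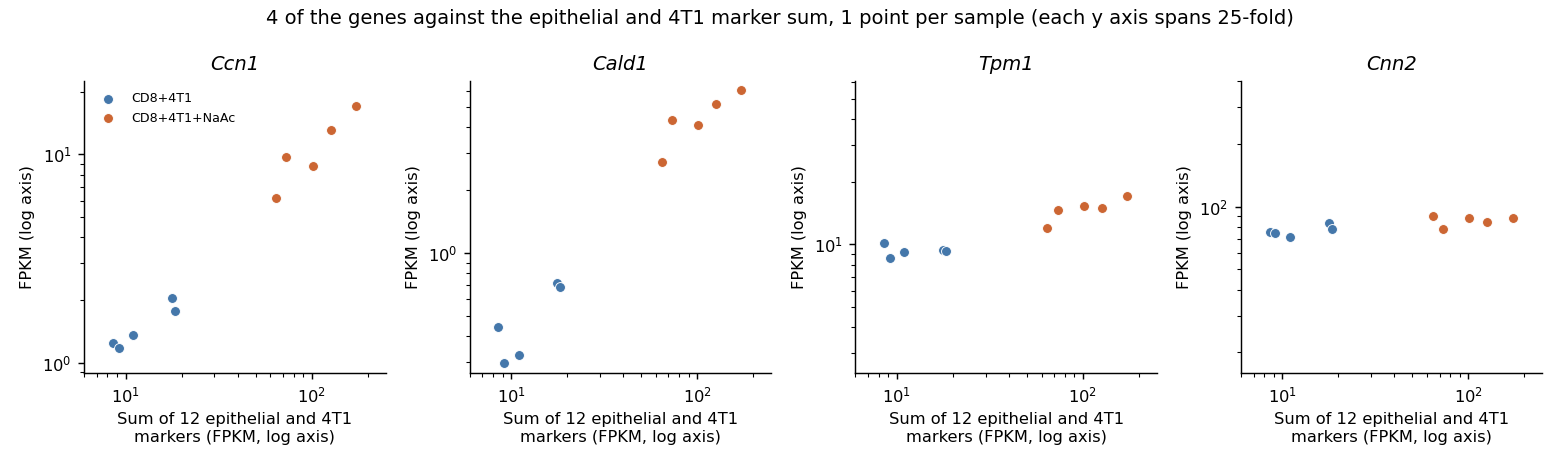
Ccn1, Cald1, Tpm1 and Cnn2 (FPKM, log y axes that each span 25-fold) against the summed FPKM of 12 epithelial and 4T1 markers (log x axis), 1 point per sample, blue for CD8+4T1 and orange for CD8+4T1+NaAc. Ccn1 and Cald1 climb with the marker sum from 1.18 and 0.295 FPKM to 17.0 and 6.03 FPKM, Tpm1 spans 8.61 to 17.1 FPKM, and Cnn2 stays between 71.3 and 89.8 FPKM.

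Other sources of contractile RNA were looked at by their markers. Smooth muscle and pericyte markers (7 genes) summed to 3.04 to 3.79 FPKM without NaAc and to 4.78 to 9.66 FPKM with it, and 6 of the 7, the defining Myh11, Cnn1, Des, Lmod1, Rgs5 and Cspg4, were under 0.5 FPKM in all samples. Smtn made up most of that sum and was called higher. Fibroblast markers (8 genes) summed to 1.07 to 1.49 FPKM without NaAc and to 2.73 to 3.81 FPKM with it. Of that list 2 genes were tested, both past the filter only through the NaAc group, and 1 was called. That was Pdgfra, from 0.0686 to 0.227 FPKM without NaAc to 0.583 to 1.70 FPKM with it (log2 fold change 2.32, limma adjusted p = 0.000527), and Col1a2 was not called (0.49, limma adjusted p = 0.112). Below the level tested, Col1a1 went from a mean of 0.196 to 0.516 FPKM without overlap, Fap from 0.138 to 0.0895 FPKM, and Col3a1 was at 0 in all samples. Of the 5 endothelial markers 4 were under 0.5 FPKM in all samples, and the other, Pecam1, which T cells also express, was called higher (log2 fold change 0.58, limma adjusted p = 5.07e-05). Platelet markers (5 genes) summed to 12.6 to 27.2 FPKM without NaAc and to 16.1 to 21.4 FPKM with it. Of these 3 were tested and 0 called. Macrophage markers (5 genes) summed to 23.0 to 29.8 FPKM without NaAc and to 22.9 to 25.9 FPKM with it. Of these 2 were tested and 1 was called higher. The part of these cell types in the contractile genes was not tested.

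Of 17 genes of the upstream Hippo pathway, all tested, 9 were called higher and 2 lower (limma, median log2 fold change 0.44). Over all genes tested 17.6% were called higher and 36.5% in either direction, with a median of -0.02. Both co-activators and all 4 TEAD factors were among those called higher, and the other 3 were Wwc1, Amot and Stk3. Tead1, Tead4 and Amot passed the filter only through the NaAc group, where they are high, so these counts do not support a direction. Without the filter 9 of the 17 genes were called higher and 2 lower, beside 8.94% of all genes called higher that way. Yap1, the gene of YAP, went from 3.61 ± 0.239 to 4.99 ± 0.749 FPKM (SD, n = 5), and Wwtr1, the gene of TAZ, from 1.14 ± 0.402 to 5.14 ± 0.999 FPKM, with log2 fold changes of 0.45 and 2.12 (limma adjusted p = 0.00497 and 4.94e-05). Tead1 was at 0.203 to 0.393 FPKM without NaAc and at 1.51 to 2.87 FPKM with it. Tead4 was at 0.0674 to 0.233 FPKM and 0.887 to 2.42 FPKM. Their log2 fold changes were 2.53 and 2.68, and those of Tead2 and Tead3 were 1.33 and 0.84, each called. Wwc1, which encodes the LATS activator KIBRA, rose as well, by 2.01 on the log2 scale (standard error 0.18, limma adjusted p = 3.00e-05). Amot, an angiomotin that binds YAP, and Stk3, the gene of MST2, rose by 0.94 and 0.44 (limma adjusted p = 0.0276 and 0.00990), Amot in 5 of the 10 fits that left out a single sample.

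The genes called lower were Stk4 and Sav1, both above the TEAD factors in FPKM. Stk4, the gene of MST1 and a paralog of Stk3, went from 49.2 ± 1.98 to 42.5 ± 1.83 FPKM (SD, n = 5) and fell by 0.21 on the log2 scale (limma adjusted p = 0.00481). This call was lost when samples were rescaled to the same FPKM total (adjusted p = 0.680), when they were scaled to the T cell markers (0.381) and with voom on the recovered fragments (0.0806). Sav1, the adaptor of MST kinases, fell by 0.48 on the log2 scale (limma adjusted p = 0.00304, and 0.0545 when scaled to T cell markers). Mob1a, the most abundant of the genes not called, was at 52.7 ± 3.45 and 48.5 ± 4.41 FPKM, and Nf2, the gene of merlin, at 19.8 ± 0.727 and 19.5 ± 1.42 FPKM (SD, n = 5). The log2 fold changes of Mob1a (-0.12) and Nf2 (-0.02) turned positive at the same total and when scaled to T cell markers, and that of Nf2 also with voom. Yap1, Tead2, Tead3, Amot, Stk3, Stk4 and Sav1 were named after their values were seen. Among the NaAc samples Wwtr1, Tead1, Tead2, Tead4 and Wwc1 were highest in replicate 2 and lowest in replicate 5, as the epithelial and 4T1 marker sum was, while Yap1 was highest in replicate 1; the part of 4T1 RNA in these changes was not tested either. Of the 17 genes 3 passed the filter through the NaAc group alone.

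Among 19 genes of commonly used YAP and TAZ target signatures, 16 were tested, 8 were called higher and 1 lower (limma, median log2 fold change 0.45). Over all genes tested 17.6% were called higher, with a median of -0.02. Lats2, not called, is also in the Hippo pathway list. Of the 8 called higher, 2 (Amotl2 and F3) passed the filter only through the NaAc group, where they are high. Myof, the gene of the membrane repair protein myoferlin, rose from 0.356 to 0.731 FPKM over the samples without NaAc to 2.65 to 5.92 FPKM with it, highest in replicate 2 and lowest in replicate 5 like the epithelial and 4T1 marker sum, whose part was not tested. Its log2 fold change of 2.71 equals that of Ccn1 within their standard errors of 0.24 and 0.25. Amotl2, another angiomotin, rose by a log2 fold change of 1.68. F3, which encodes tissue factor, rose by 1.06, and Dock5, a Rac exchange factor, by 0.94. Axl, a receptor tyrosine kinase named here after its values were seen, stood at a far higher level, 44.5 ± 1.92 and 78.8 ± 6.77 FPKM (SD, n = 5), and rose by 0.82 (limma adjusted p = 1.66e-05). Amotl2, F3, Dock5 and Axl were, like Myof, highest in replicate 2 and lowest in replicate 5 among the NaAc samples. The part of 4T1 RNA in them was not tested either. Crim1 and Gadd45a, the most abundant genes not called, had log2 fold changes of -0.29 and -0.15. In both, replicate 1 with NaAc stood above the other NaAc samples, and without it Crim1 was at -0.42 (limma adjusted p = 0.000171) and Gadd45a at -0.38 (0.00804), so both were then called lower. Foxf2, the gene called lower, was also named after its values were seen. Its limma adjusted p of 0.0484 ranged from 0.0343 to 0.102 with a sample left out, under 0.05 in 4 of the 10 fits. It was 0.0899 at the same total, 0.0719 when scaled to T cell markers and 0.0905 without a filter. With voom (0.0359) and with median-ratio scaling (0.0492) Foxf2 was still called lower.

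**Figure D3:**
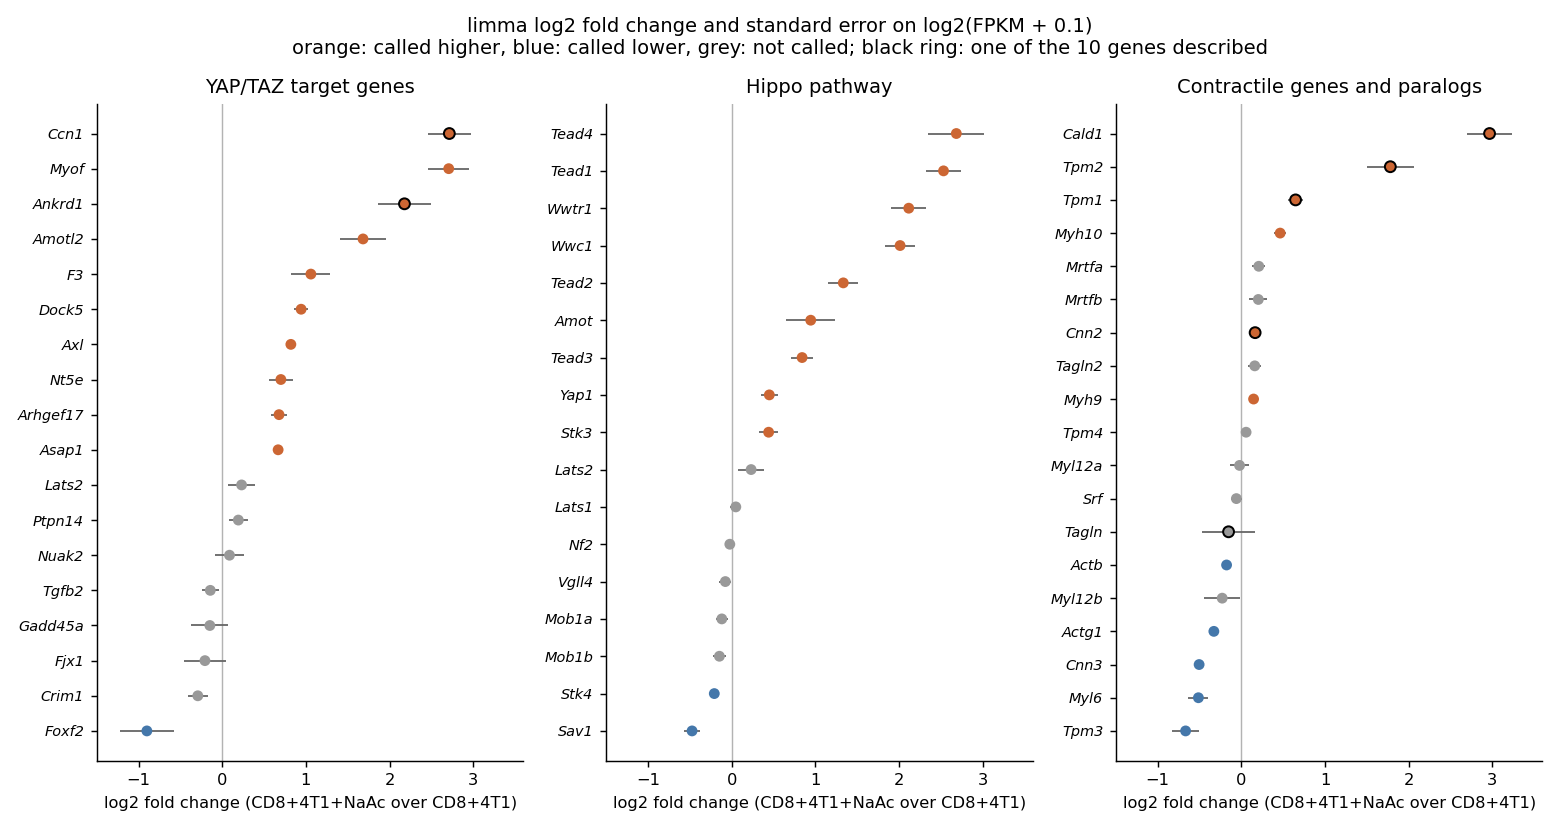
limma log2 fold changes (x axis, CD8+4T1+NaAc over CD8+4T1, bars 1 standard error) of the tested YAP and TAZ targets, Hippo pathway genes, and contractile genes with their paralogs and regulators, coloured by call and ringed in black for the 10 genes described. Ccn1 (2.72), Tead4 (2.68) and Cald1 (2.97) head the panels, and Tpm3 (-0.67) and Foxf2 (-0.90) stand at the lower ends.

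Of the genes of SRF and its MRTF partners, 0 of 3 tested were called by limma, beside 36.5% of all genes tested, too few genes to read as a difference. Of the 3, 1 (Mrtfa) had an unadjusted p under 0.05, and voom called Mrtfa and Mrtfb higher. Srf was at 28.4 ± 1.40 FPKM without NaAc and 27.3 ± 2.48 FPKM with it, and Mrtfa, the gene of MRTF-A, at 11.7 ± 1.37 and 13.5 ± 0.824 FPKM (SD, n = 5). The log2 fold changes were -0.06 and 0.21, with limma adjusted p-values of 0.502 and 0.0591. Srf turned positive when samples were rescaled to the same total (0.12), and Mrtfa and Mrtfb were called higher there (0.38 and 0.37, limma adjusted p = 0.00539 and 0.0248). Myocd, the smooth muscle partner of SRF, was listed at 0 in all 10 samples.

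Over 22 paralogs and regulators of the contractile genes, 14 were tested, 2 were called higher and 5 lower (limma, median log2 fold change -0.04), beside 17.6% called higher, 36.5% called in either direction and a median of -0.02 over all genes tested. That split depends on the scaling, with 6 higher and 4 lower when samples were rescaled to the same total and likewise with voom. Actb and Actg1, the cytoplasmic actins, were at 803 ± 34.4 and 793 ± 23.1 FPKM without NaAc and at 710 ± 17.4 and 631 ± 10.9 FPKM with it (SD, n = 5). Actg1 fell by 0.33 on the log2 scale (limma adjusted p = 0.000289) and kept this direction under each scaling. Actb fell by 0.18 (limma adjusted p = 0.0164), but its log2 fold change was 0.00 when samples were rescaled to the same total (adjusted p = 0.994). Acta2 made up 0.00605% ± 0.00509 of the actin FPKM without NaAc and 0.0249% ± 0.00315 with it (SD, n = 5).

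Within the tropomyosins the makeup shifted. Tpm3, the most abundant tropomyosin gene by FPKM without NaAc, was at 58.6, 66.6, 66.9, 70.1 and 79.5 FPKM without NaAc and at 66.6, 35.5, 41.4, 36.6 and 40.1 FPKM with it. Replicate 1 with NaAc overlapped the other group and the remaining 4 lay below it, and Tpm3 fell by 0.67 on the log2 scale (standard error 0.16, limma adjusted p = 0.00744). Tpm4 was at 51.6 ± 2.08 and 53.7 ± 2.83 FPKM (SD, n = 5) and was not called (0.06), though it was called higher with samples at the same total (0.23, limma adjusted p = 0.00408). Tpm1 and Tpm2 together made up 7.50% ± 0.742 of the tropomyosin FPKM without NaAc and 14.3% ± 2.08 with it (SD, n = 5), with no overlap (exact permutation test, two-sided, p = 0.00794). The share of Tpm3 went from 52.6% to 38.2% (exact permutation test, two-sided, p = 0.0238). These shares do not depend on how the samples are scaled.

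The calponin makeup shifted too. Cnn3 fell from 42.5 ± 2.35 to 29.9 ± 2.00 FPKM (SD, n = 5; log2 fold change -0.51, limma adjusted p = 0.000109), so that Cnn2 went from 64.2% ± 2.40 to 74.0% ± 0.891 of the calponin FPKM (exact permutation test, two-sided, n = 5, p = 0.00794). Tagln2, the transgelin of lymphocytes, was at 180 ± 15.5 and 201 ± 17.7 FPKM (SD, n = 5; log2 fold change 0.16, limma adjusted p = 0.140). It was called higher at the same total (0.34), when scaled to T cell markers (0.29) and with voom (0.25). Tagln was at 0.311% ± 0.134 and 0.233% ± 0.0606 of the transgelin FPKM. Of the myosin light chains Myl6 was called lower (log2 fold change -0.51, limma adjusted p = 0.00651). The heavy chains Myh9 and Myh10 were called higher (0.15 and 0.46), Myh9 in 4 of the 10 fits that left out a single sample. Myh14, below the level tested, went from a mean of 0.0213 to 0.342 FPKM without overlap (limma adjusted p without a filter = 0.000525).

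**Figure D4:**
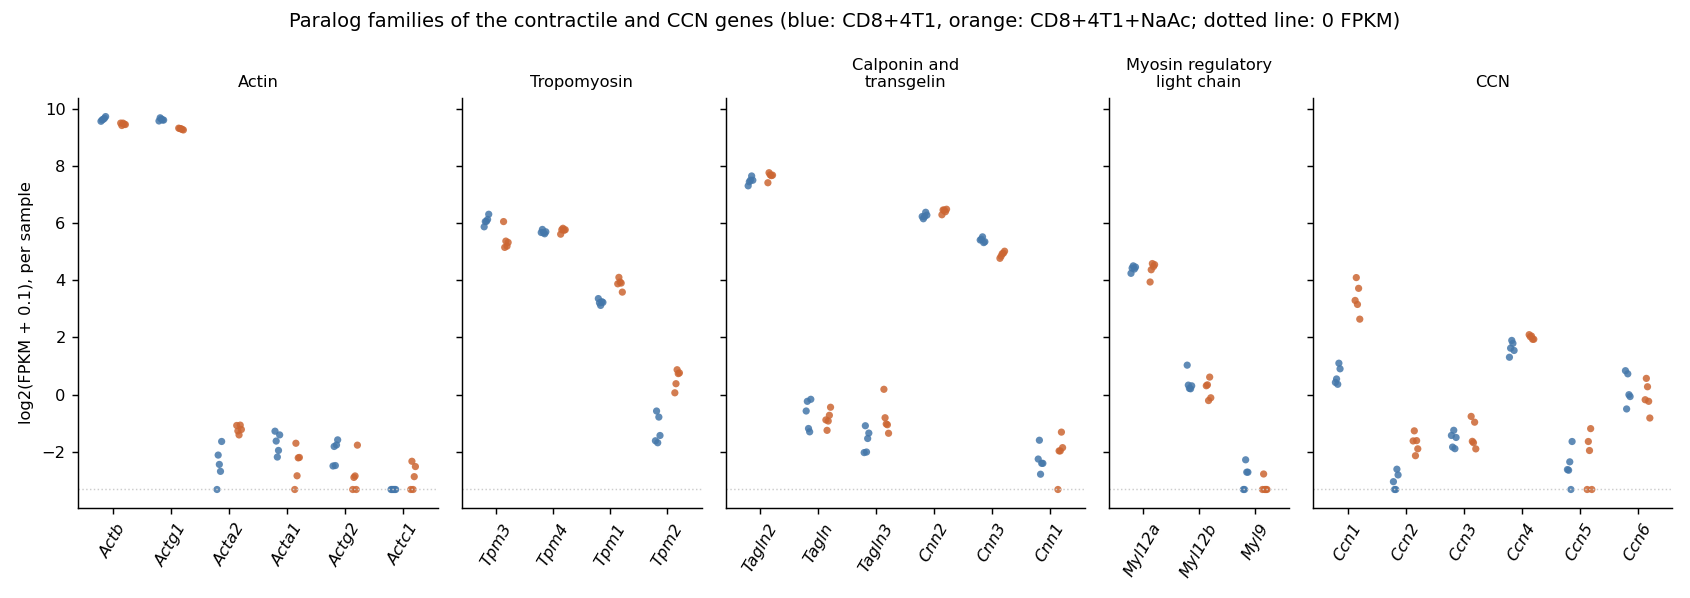
log2(FPKM + 0.1) of the paralogs in 5 gene families (y axis), 1 point per sample, blue for CD8+4T1 and orange for CD8+4T1+NaAc, with the dotted line at 0 FPKM. On the deposited FPKM, Actg1, Tpm3 and Cnn3 sit lower with NaAc (replicate 1 of Tpm3 apart), whereas Ccn1, Tpm1, Tpm2 and the low Acta2 and Ccn2 sit higher, and Tagln and Myl9 overlap.

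In the CCN family, Ccn1 made up 25.3% ± 5.65 of the FPKM without NaAc and 65.2% ± 6.71 with it (SD, n = 5; exact permutation test, two-sided, p = 0.00794). With NaAc this share was highest in replicate 2 (73.6%) and lowest in replicate 5 (57.5%), as the epithelial and 4T1 marker sum was. The part of 4T1 RNA in this share was not tested. Ccn4, a WNT-induced member, was the other CCN gene called, with means of 3.04 ± 0.485 and 3.93 ± 0.198 FPKM (SD, n = 5) and a log2 fold change of 0.38 (limma adjusted p = 0.0186). Ccn6 was tested and not called (-0.28, limma adjusted p = 0.542), and Ccn3 and Ccn5 lay below the level tested. Of the ankyrin repeat relatives of Ankrd1, Ankrd23 was at 1.65 ± 0.150 and 2.21 ± 0.423 FPKM (SD, n = 5) with a limma adjusted p of 0.0491, a call kept in 2 of the 10 fits that left out a sample, and Ankrd2 lay below the level tested.

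Most regulators and anchors of actomyosin were called higher: of 22 genes, 21 were tested, 14 were called higher and 1 lower (limma, median log2 fold change 0.41), beside 17.6% called higher and a median of -0.02 over all genes tested. Flnc, the gene of filamin C, was at 0.808 to 1.82 FPKM without NaAc and at 5.96 to 12.6 FPKM with it, which is 2.82 on the log2 scale (standard error 0.27, limma adjusted p = 4.03e-05). Lima1, the gene of the actin-bundling protein EPLIN, rose by 1.54. Vcl, the gene of the focal adhesion protein vinculin, rose by 1.18, from 2.88 ± 0.198 to 6.70 ± 0.904 FPKM (SD, n = 5). Fhl2, a LIM protein of focal adhesions, rose by 0.85. Flnc and Lima1 were, like Ccn1 and Cald1, highest in replicate 2 and lowest in replicate 5 among the NaAc samples, as was Vcl. The epithelial and 4T1 marker sum had the same highest and lowest samples (173 and 64.6 FPKM), and its part in these genes was not tested. Actn4 and Tes, the most abundant genes not called, had log2 fold changes of -0.08 and -0.13 that turned positive with samples at the same total (0.10 and 0.05). The single gene called lower was Rhoa, the gene of the GTPase upstream of the ROCK kinases, which fell by 0.46 (limma adjusted p = 8.98e-05) and was named after its values were seen.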

How the data were processed

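RNA of 10 samples of CD8+ T cells, 5 per group, was sequenced from NEBNext Ultra libraries on a NovaSeq instrument. The authors' methods name StringTie for assembly, featureCounts for counting and DESeq2 for the comparison, and the submitters' processing notes fastp, HISAT2 2.0.5, StringTie 1.3.3b and featureCounts 1.5.0-p3. The genome build, annotation and strand setting are not given in the sources used here. The authors deposited FPKM, 1 column per sample and not pooled, with gene length as an other, unnormalized column. Listed positions differ from GRCm38 (1467 of 52073 shared genes have the same position), so they are given as listed and kept apart from the RefSeq promoters. FPKM times length gave whole fragments for 100% of values (within 0.1 of a whole number).

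The 15710 of 57825 genes that averaged 0.5 FPKM or more were fitted on log2(FPKM + 0.1) with limma 3.58.1 in R 4.3.3 (variance trend, robust moderation, no replicate block), and p-values were adjusted over all of them. Exact permutation tests, two-sided, and exact binomial intervals of fragment ratios used SciPy 1.17.1, and figures matplotlib 3.10.9. Simulated data with known changes were used to test the fit. The members and lists were chosen with earlier results of these data known. Named genes were all 10 members, their paralogs and, from each other list, the 4 called genes with the largest change and the 2 most abundant ones not called; exceptions are stated. Alternatives were other pseudocounts (1 and 0.01), no filter or one at 5 FPKM, equal FPKM totals, median-ratio scaling and scaling to T cell markers. Further ones were voom on recovered fragments, moderation without the trend and robust options, the replicate number as a block, and leaving out samples. For genes that are no members they were added after the data were seen.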

Additional observations from a re-analysis of the deposited data

Results flagged for a closer look

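Among 152 sets of 5 values (the levels of the 10 genes and of the named paralogs, pathway and partner genes on log2(FPKM + 0.1), the marker sums on the same scale, the number of genes above 0 FPKM and the share of fragments in listed genes, in each group), 11 had a sample whose gap to its nearest neighbour, divided by the range of the group, was above Dixon's critical value of 0.71 for 5 samples; chance alone gives about 7.6. In 9 of the 11 the sample was a replicate 1, 4 in CD8+4T1 and 5 in CD8+4T1+NaAc. The number of genes above 0 FPKM was lowest in replicate 1 of CD8+4T1 (22291, gap 0.848) and in replicate 1 of CD8+4T1+NaAc (20233, gap 0.916). In that NaAc sample Gadd45a was at 12.6 FPKM against 4.78 to 5.93 FPKM in the other 4 (gap 0.778), Srf at 31.7 against 25.8 to 26.9 FPKM (gap 0.797), Tpm3 at 66.6 against 35.5 to 41.4 FPKM (gap 0.756) and Myl6 at 80.5 against 105 to 117 FPKM (gap 0.7104). In replicate 1 of CD8+4T1, Myl6 was at 115 against 149 to 164 FPKM (gap 0.734), Myl12b at 1.94 against 1.05 to 1.16 FPKM (gap 0.845), and Ankrd2 above 0 alone of its group (gap 1). Myl9 was above 0 in replicate 2 of CD8+4T1+NaAc alone of its group, by 1 fragment (gap 1). Amotl2 was lowest in replicate 5 of CD8+4T1+NaAc, at 0.919 FPKM against 1.80 to 2.35 FPKM (gap 0.7102), the sample with the lowest epithelial and 4T1 marker sum. The causes were not tested.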

How the results depend on the processing

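A filter at a mean of 5 FPKM left 3 of the 10 genes called (Ccn1, Tpm1 and Cnn2), 3733 genes called in all, 2 of the YAP and TAZ target list and 2 of the Hippo list, since most of these genes lie below that level and were not tested. The counts of called genes stayed within 1.5 times under the other alternatives, and each of the 10 genes kept its direction in every fit that held it (voom, the replicate block and the fit without trend and robust moderation held the 7 genes past the filter). The size of low genes followed the pseudocount and voom: the log2 fold change ranged from 0.77 to 2.92 for Ankrd1, 0.83 to 2.13 for Tpm2 and 1.85 to 3.32 for Cald1, and with the pseudocount alone from 0.24 to 3.04 for Ccn2 and 0.28 to 2.24 for Acta2. With each sample left out in turn, 4924 to 6930 genes were called, 4 to 6 of the 10 genes were called (Ankrd1 passed the filter in 6 of the 10 fits, Tagln in 7) and 7 to 8 did not overlap; the lists gave 8 to 11 calls for YAP and TAZ targets, 10 to 11 for the Hippo pathway, 6 to 9 for contractile paralogs and 14 to 16 for actomyosin genes. Scaling moved the median of all genes on the log2 scale from -0.02 to 0.15 at the same total and to 0.11 with T cell markers. Of the fragments each sample was scaled to, 95.5% to 97.9% lay in listed genes in CD8+4T1. In CD8+4T1+NaAc 89.8% to 92.1% did, without overlap. The share of calls that were higher, 48.1% as reported, was 77.9% at the same total (4900 higher, 1387 lower), 73.1% with T cell markers (3909 and 1435), 65.0% with voom (3958 and 2134) and 33.7% at 5 FPKM (1257 and 2476). Among the genes named in the text other than cell type markers, log2 fold changes that turned positive at the same total were Gadd45a 0.026, Mob1a 0.057, Nf2 0.15, Srf 0.12, Actn4 0.10, Tes 0.047, Actb 0.00065 and Myl12a 0.16; with T cell markers Mob1a 0.011, Nf2 0.11, Srf 0.071, Actn4 0.056, Tes 0.0011 and Myl12a 0.11; with voom Nf2 0.067, Srf 0.031, Actn4 0.016 and Myl12a 0.068. Myl12a was also at 0.049 without replicate 1 of both groups and between -0.072 and 0.0896 with a sample left out. The deviations of same-numbered samples correlated with r from -0.03 to 0.07. Samples of a shared origin need not correlate over all genes, so these values cannot decide whether a shared number marks paired samples. No source used here says whether it does. Replicate 1 had the fewest genes above 0 FPKM in both groups. With the replicate block 5399 genes and 5 of the 10 were called, and Cnn2 was not (limma adjusted p = 0.0653). Amot, Foxf2, Myh9 and Ankrd23 were not called with the block either (limma adjusted p = 0.0758, 0.0858, 0.0508 and 0.0954). Cnn2 also lost its call without a filter (0.0622) and without trend and robust moderation (0.06006). Depth limits Ccn2, Acta2 and Myl9, which had at most 17 fragments in a sample.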
